A study of Homo sapiens with 6 samples.

Results

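The genes described here are 38 genes of fatty acid oxidation and its neighbouring pathways, chosen by name out of the 21134 genes listed for the series. They cover fatty acid uptake, storage and activation (7 genes), the carnitine shuttle (5), the acyl-CoA dehydrogenases (5), the later steps of mitochondrial beta-oxidation (8), the electron transfer flavoprotein system (3), ketone body metabolism (4), butanoate and gamma-aminobutyric acid (GABA) metabolism (3), and the PPAR regulators (3). All 38 were listed, and all 38 had enough counts to be tested.

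RNA was sequenced from cardiomyocytes that the labels describe as derived from human induced pluripotent stem cells (hiPSC-CMs), made from H9, an established human embryonic stem cell line. The study asked how alcohol injures these cells and whether losartan, which blocks the angiotensin II type 1 receptor, changes that injury. The 6 libraries comprised 2 of untreated cells (control), 2 of cells given 100 mM alcohol for 24 h (alcohol), and 2 of cells that received the same alcohol dose plus 1 μM losartan over 24 h (co-treated). All come from a single line in culture, and nothing states that the 2 replicates of a group were separate differentiations, so p-values measure only the spread between these libraries. Losartan without alcohol was not analysed here.

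Fatty acids are the main fuel of the adult heart. They are bound in the cytosol, joined to coenzyme A, carried into mitochondria as carnitine esters and shortened in cycles of beta-oxidation, whose electrons pass through the electron transfer flavoprotein to the respiratory chain. Ketone bodies and butanoate enter the same pool of acetyl-CoA, and PPARα and PPARδ with the coactivator PGC-1α drive transcription of many of these genes. Cardiomyocytes made from stem cells resemble fetal cells, which use more glucose.

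No gene of the 38 passed a Benjamini-Hochberg adjusted p of 0.05 in any of the 3 comparisons by edgeR's quasi-likelihood test, nor by DESeq2 or limma. Among the members with small unadjusted p-values were OXCT1, a ketone-using enzyme that was lower after alcohol, HADH and ACADS, dehydrogenases of beta-oxidation that were higher in both treated groups, and the acyl-CoA synthetase gene ACSL3 and the lipid droplet coat gene PLIN2, which were higher in the co-treated libraries than in the others. These differences were of 1.21-fold to 1.63-fold or, for OXCT1, to 0.742 of control. For HADH the unadjusted p was under 0.05 only in co-treated against control, and was 0.0601 by edgeR in alcohol against control.

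Library totals ran from 4898287 to 5051448 expected counts, so that 3 counts, the floor used here, correspond to 0.594 to 0.612 CPM (counts scaled to library size). Summed FPKM (a level scaled to transcript length and library size) of 17 cardiomyocyte markers was 27930 to 39920, with all 17 detected, against 6.23 to 10.9 for 6 endothelial, 8.89 to 17.2 for 5 epicardial, 0.86 to 1.66 for 3 adipocyte (PLIN1 at or under 3 counts in every library), 10.9 to 19.7 for 6 pluripotency and 38.8 to 53.9 for 10 hepatic and endoderm markers (FOXA2 and HNF4A at or under 3 counts in every library). The 10 fibroblast markers, VIM among them, summed to 931.8 to 1187. The 6 smooth muscle markers summed to 1724 and 1965 in control, 750.7 and 1491 in alcohol and 1027 and 1069 in co-treated libraries. Alcohol replicate 2 stood apart, with the lowest sum of the 20 glycolysis genes (5031, against 7340 to 8875 in the other 5 libraries), of the cardiomyocyte markers and of the smooth muscle markers. The cardiomyocyte sum is led by a few abundant genes, and its members did not move together. MYL7 measured 14510 and 16180 FPKM in control and 9321 in alcohol replicate 2, its lowest value. MYH6, NKX2-5 and TBX5 were highest in that library, at 736.8, 151.4 and 25.55. Of the 17 markers, 8 were higher and 9 lower in alcohol against control by the fit described below. In these bulk samples, fewer cells of a type and less RNA per cell cannot be told apart.

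Promoter sequences are shown for 5 genes. HADHA and HADHB encode both subunits of 1 enzyme and had no unadjusted p under 0.05 by edgeR in any comparison. OXCT1 had an unadjusted p under 0.05 in both comparisons with control, and ACSL3 and PLIN2 had one in both comparisons of co-treated libraries. ACADS also had one in both comparisons with control, and its sequence is not shown. The sequences are RefSeq's, on GRCh38.p14, from 250 bases before to 50 bases after the annotated start that lies farthest upstream among those given for the gene, 5′ to 3′ along the gene. Capitals mark GC boxes (GGGCGG, or CCGCCC on the other strand), CCAAT boxes (CCAAT or ATTGG) and TATA boxes (TATAAA or TTTATA).
HADHA, chr2:26244583-26244882, minus strand: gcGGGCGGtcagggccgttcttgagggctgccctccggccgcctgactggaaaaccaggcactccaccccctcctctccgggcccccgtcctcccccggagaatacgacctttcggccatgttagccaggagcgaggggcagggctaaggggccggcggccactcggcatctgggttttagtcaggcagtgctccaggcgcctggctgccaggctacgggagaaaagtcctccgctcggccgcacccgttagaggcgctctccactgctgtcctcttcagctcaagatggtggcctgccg
HADHB, chr2:26244689-26244988, plus strand: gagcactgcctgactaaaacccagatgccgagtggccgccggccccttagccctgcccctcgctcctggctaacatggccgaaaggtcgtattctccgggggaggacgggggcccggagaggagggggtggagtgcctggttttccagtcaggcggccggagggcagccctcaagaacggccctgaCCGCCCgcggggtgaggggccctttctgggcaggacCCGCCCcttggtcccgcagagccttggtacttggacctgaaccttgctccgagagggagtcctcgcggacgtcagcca
OXCT1, chr5:41870376-41870675, minus strand: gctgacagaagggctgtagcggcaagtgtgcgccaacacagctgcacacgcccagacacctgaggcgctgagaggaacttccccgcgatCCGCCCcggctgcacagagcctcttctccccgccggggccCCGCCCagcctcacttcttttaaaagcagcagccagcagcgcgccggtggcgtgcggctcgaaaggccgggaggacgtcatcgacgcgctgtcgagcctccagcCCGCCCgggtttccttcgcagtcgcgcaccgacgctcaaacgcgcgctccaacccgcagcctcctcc
ACSL3, chr2:222860786-222861085, plus strand: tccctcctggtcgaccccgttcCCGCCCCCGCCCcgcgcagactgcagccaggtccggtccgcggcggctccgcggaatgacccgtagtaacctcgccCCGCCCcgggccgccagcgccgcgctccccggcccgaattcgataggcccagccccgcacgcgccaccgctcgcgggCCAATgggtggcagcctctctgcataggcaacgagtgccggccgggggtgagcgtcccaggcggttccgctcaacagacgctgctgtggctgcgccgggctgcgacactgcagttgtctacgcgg
PLIN2, chr9:19127443-19127742, minus strand: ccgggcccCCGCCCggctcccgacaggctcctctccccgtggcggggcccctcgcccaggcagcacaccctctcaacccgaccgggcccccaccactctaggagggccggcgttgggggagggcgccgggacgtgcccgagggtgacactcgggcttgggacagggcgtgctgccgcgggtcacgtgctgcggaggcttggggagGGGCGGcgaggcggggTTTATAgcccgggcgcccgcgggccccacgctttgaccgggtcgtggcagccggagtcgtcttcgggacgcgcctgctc
By these starts HADHA and HADHB face away from each other with 307 bases between them, and their windows share 194 bases. GENCODE also gives HADHB a start at 26243170, inside HADHA. For PLIN2 it places the upstream end of the gene at 19149290, well before the RefSeq start used here, 19127492. The PLIN2 window is thus not at the farthest upstream end that GENCODE gives. For the others, the upstream ends in GENCODE are 26244726 for HADHA, 41870519 for OXCT1 and 222860934 for ACSL3. Each lies upstream of the RefSeq start used, which is 26244632, 41870425 and 222861036 in turn, but inside the printed window. All 5 windows hold a GC box, 1 in HADHA, 2 in HADHB, 3 in OXCT1, 3 in ACSL3 and 2 in PLIN2. The HADHA box lies in the shared bases and is the same site as the first box printed for HADHB, read on the other strand. Among these 5, a CCAAT box lay only in the ACSL3 window and a TATA box only in that of PLIN2. RefSeq windows were found for 33 of the 38 genes (56 windows, several genes having more than 1 start), and 57.1% of the 56 held a GC box against 45% of all 35116 windows of this length. The CCAAT box was in 23.2% of the 56 and 34.6% of all windows, and the TATA box in 10.7% and 11.5%. The nuclear receptor half-site AGGTCA, searched on both strands, was in 0 of the 56 windows and in 13.8% of all windows, which says only that these letters are not in these windows. The 3 box motifs do not overlap each other in the 5 sequences printed. Windows that share most of their bases, as those of 1 gene do, are not independent.

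**Figure D1:**
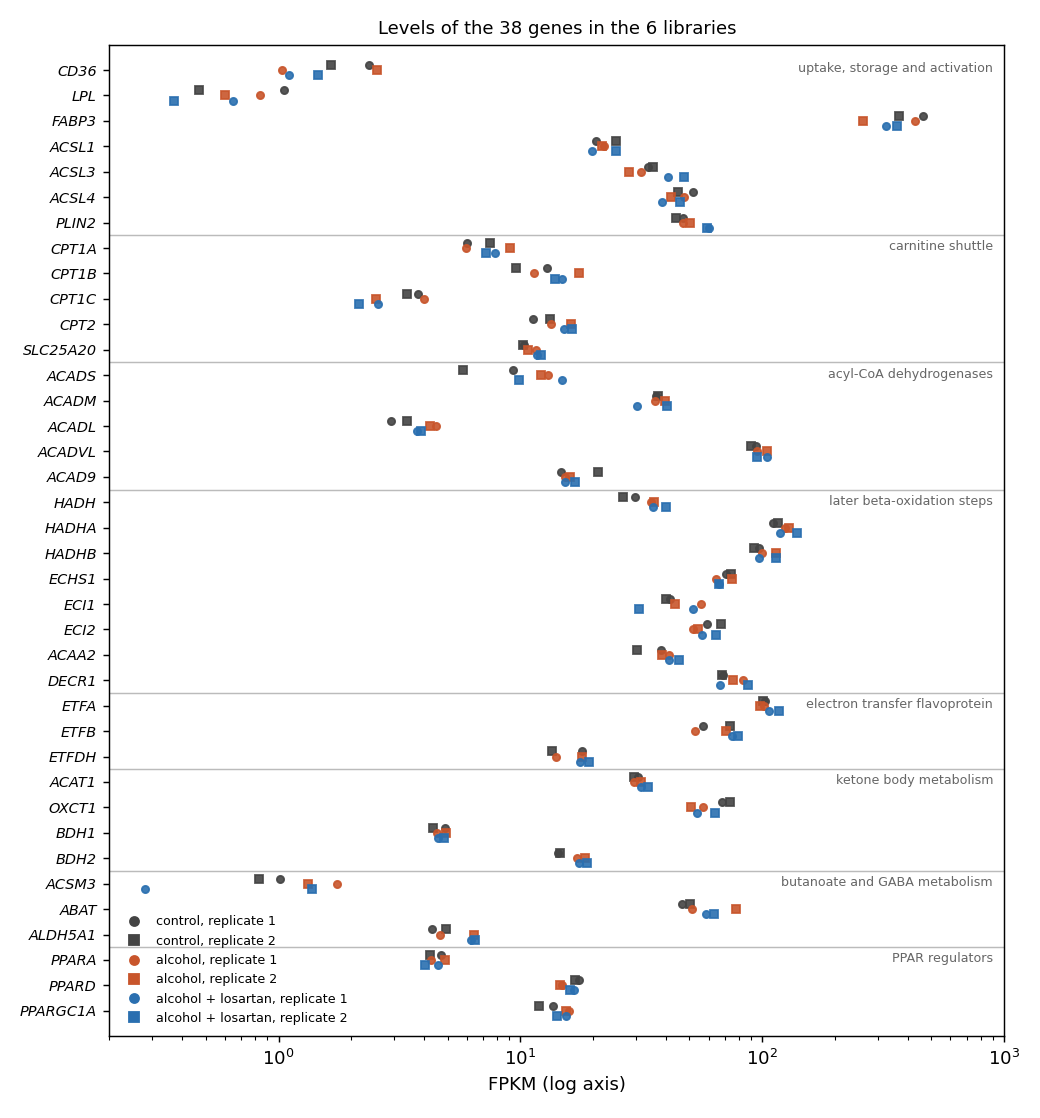
FPKM of the 38 genes in the 6 libraries on a log axis, grouped by role, with circles for replicate 1 and squares for replicate 2. FABP3 sits at 261 to 463 FPKM and LPL at 0.37 to 1.05, and for most genes the 6 libraries lie close together.

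Levels spanned nearly the whole range of the libraries. FABP3, the heart form of the cytosolic fatty acid binding protein, was the highest member in each of the 6 libraries, at 261 to 463 FPKM, and stood at percentile 99.1 of the 14926 genes tested in control. LPL, the lipase that frees fatty acids from circulating triglyceride, had the lowest mean in control, at percentile 5.09. HADHA, HADHB, ETFA and ACADVL followed FABP3, each at 89.7 FPKM or more in every library. The median absolute difference between replicates of the 38 genes was 0.163 on the log2 scale among controls, 0.174 after alcohol and 0.161 after co-treatment, against 0.175, 0.193 and 0.213 over all genes tested. The pairs with the widest gap were LPL in control, CD36 in alcohol and ACSM3 in co-treated libraries, which are 3 of the lowest members.

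The first group of genes takes up, stores and activates fatty acids. CD36, the fatty acid transporter of the cell surface, measured 2.36 and 1.65 FPKM in control, 1.03 and 2.55 in alcohol and 1.10 and 1.45 in co-treated libraries. The alcohol libraries spanned the values of both other groups, and its counts were low, at 16.5 to 32.6 per library. FABP3 lay at 463 and 367 in control, 430 and 261 in alcohol and 325 and 360 in co-treated libraries, so that its co-treated values were below both controls while the alcohol values overlapped both other groups. The lowest FABP3 value belonged to alcohol replicate 2, the library with the lowest cardiomyocyte marker sum, and the part of one in the other was not tested.

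Of the 3 long-chain acyl-CoA synthetase genes, ACSL3 had groups that separated, while ACSL1 and ACSL4 overlapped in all 3 comparisons. ACSL3 (chromosome 2, 222860934 to 222944639 on GRCh38), an acyl-CoA synthetase of the endoplasmic reticulum and of forming lipid droplets, measured 33.7 and 35.5 FPKM in control, 31.6 and 28.2 in alcohol and 40.7 and 47.4 in co-treated libraries. The 3 groups did not overlap, with alcohol lowest and co-treated highest. The log2 fold change from alcohol to co-treated was 0.55 (SE 0.131, 95% interval 0.27 to 0.83), with an unadjusted p of 0.00106 and an adjusted p of 0.546 by edgeR. Against control the co-treated difference was 0.31 (SE 0.130, 0.03 to 0.59, adjusted p = 0.343). The latter was 0.17 without co-treated replicate 2. ACSL1, the main acyl-CoA synthetase of adult heart, stayed between 19.8 and 24.9 FPKM, and ACSL4, which prefers arachidonic acid, between 38.6 and 51.9. Within a library, the ratio of ACSL3 to ACSL1 was 1.64 and 1.43 in control, 1.43 and 1.30 in alcohol and 2.05 and 1.90 in co-treated libraries.

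PLIN2 (chromosome 9, 19108375 to 19149290), a coat protein of lipid droplets, measured 47.1 and 43.9 FPKM in control, 47.1 and 50.4 in alcohol and 60.3 and 59.4 in co-treated libraries. Both co-treated values were above all 4 others, while control and alcohol overlapped. Relative to control the co-treated log2 fold change was 0.35 (SE 0.115, 0.10 to 0.60, unadjusted p = 0.0101, adjusted p = 0.227), and relative to alcohol it was 0.29 (SE 0.115, 0.04 to 0.54, adjusted p = 0.862). Those comparisons share the co-treated libraries, so they are not independent of each other. Of 11 other triglyceride and lipid droplet genes tested, 4 were above 0 and 7 below in co-treated against alcohol (median -0.11, all genes 0.002), and 3 were above and 8 below against control (median -0.06, all genes -0.002). None of the 11 passed the adjusted threshold, and at an unadjusted p under 0.05 there was 1 in each comparison, PNPLA2 lower against alcohol and G0S2 higher against control, both named after their values were seen.

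The carnitine shuttle carries long-chain acyl groups across the mitochondrial membranes. CPT1A, the liver form of the enzyme that commits them to entry, measured 6.02 and 7.49 FPKM in control, 5.98 and 9.09 in alcohol and 7.88 and 7.24 in co-treated libraries, with overlap between all groups. CPT1B, the muscle form, measured 12.9 and 9.62 in control, 11.4 and 17.5 in alcohol and 14.9 and 13.8 in co-treated libraries. The muscle form was the higher of the 2 in each of the 6 libraries, by 1.28-fold to 2.14-fold. CPT1B shares exons with the read-through transcript CHKB-CPT1B, which was assigned 19.3 and 27.8 counts in control, 61.2 and 61.6 in alcohol, and 40.9 and 0 in co-treated libraries, so the division of reads between both is uncertain.

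CPT1C, a brain-enriched form with little transferase activity, was the lowest of the 3 CPT1 genes. It measured 3.76 and 3.39 FPKM in control, 4.01 and 2.53 in alcohol and 2.57 and 2.16 in co-treated libraries, on 31.0 to 58.0 counts. Both co-treated values were below control, with a log2 fold change of -0.68 (SE 0.305, -1.34 to -0.02, adjusted p = 0.383). CPT2, the enzyme of the inner membrane, ranged from 11.3 to 16.3 FPKM, and SLC25A20, the carnitine-acylcarnitine carrier, from 10.2 to 12.1. Summed over the 5 genes the shuttle reached 44.0 and 44.2 FPKM in control, 46.3 and 56.0 in alcohol and 51.7 and 52.2 in co-treated libraries. Control was lowest on this scale, and CPM was not summed.

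The acyl-CoA dehydrogenases catalyse the first step of each cycle and divide the substrates by chain length. ACADS (chromosome 12, 120725735 to 120740008), which acts on butyryl-CoA, measured 9.30 and 5.78 FPKM in control, 13.0 and 12.2 in alcohol and 14.9 and 9.85 in co-treated libraries. All 4 alcohol-exposed values were above both controls, and the controls themselves differed by more than the alcohol replicates did. The log2 fold change was 0.70 in alcohol (SE 0.254, 0.15 to 1.25, unadjusted p = 0.0161, adjusted p = 0.322) and 0.66 in co-treated libraries (SE 0.255, 0.11 to 1.21, adjusted p = 0.296). Both rest on the same 2 controls. Without control replicate 1 they were 1.11 and 1.06, without control replicate 2 they were 0.40 and 0.35, and without co-treated replicate 1 the second was 0.35.

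ACADM, for medium chains and the enzyme most often deficient in inherited disorders of this pathway, measured 36.3 and 37.0 FPKM in control, 36.1 and 39.5 in alcohol and 30.5 and 40.3 in co-treated libraries. ACADVL, for very long chains, measured 94.4 and 89.7 in control, 94.8 and 104.6 in alcohol and 104.7 and 94.8 in co-treated libraries. ACADM overlapped between all groups, and ACADVL lay slightly above both controls in each treated library in FPKM but not in CPM. ACADL, a long-chain enzyme of minor use in human muscle, ranged from 2.93 to 4.47 FPKM and ACAD9, also an assembly factor of complex I, from 14.8 to 20.9. Within a library, ACADM was 8.08 to 12.4 times ACADL.

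Among the later steps of beta-oxidation, HADHA and HADHB encode the alpha and beta subunits of the mitochondrial trifunctional protein, whose promoters are the pair printed above. HADHA measured 111 and 116 FPKM in control, 124 and 129 in alcohol and 119 and 139 in co-treated libraries, all 4 treated FPKM values lying above control, which in CPM held for alcohol but not for co-treated libraries. HADHB ranged from 92.7 to 114.0. Their ratio within a library was 1.13 to 1.25 over the 6 libraries, a narrower relative range than that of CPT1B to CPT1A or of ETFA to ETFB (1.37 to 1.92). Depth differed as well, with 1024 to 2139 counts per library for HADHA and HADHB. CPT1A and CPT1B had 132.7 to 236.4 counts, and ETFB had 245 to 366. The parts of depth and of promoter layout in the narrower range were not tested.

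HADH (chromosome 4, 107989714 to 108035175), the dehydrogenase for medium and short chains, measured 29.9 and 26.5 FPKM in control, 34.7 and 35.6 in alcohol and 35.4 and 40.0 in co-treated libraries. Every treated value was above both controls. The co-treated log2 fold change was 0.37 (SE 0.135, 0.08 to 0.67, unadjusted p = 0.0159, adjusted p = 0.265). In alcohol it was 0.28 (SE 0.136, -0.01 to 0.57, unadjusted p = 0.0601 by edgeR), with an interval that holds 0. ECI2 (chromosome 6, 4115689 to 4135597), an isomerase for unsaturated chains found in mitochondria and peroxisomes, measured 58.9 and 67.3 in control, 51.9 and 54.2 in alcohol and 56.2 and 64.1 in co-treated libraries. Alcohol was below both other groups, while control and co-treated overlapped, and the alcohol difference was -0.29 (SE 0.128, -0.56 to -0.01, adjusted p = 0.429), or -0.19 without control replicate 2. The hydratase ECHS1 ranged from 64.4 to 75.0 FPKM, the isomerase ECI1 from 30.9 to 55.6, the thiolase ACAA2 from 30.4 to 45.2 and the reductase DECR1 from 67.0 to 87.2. As a group these 8 genes summed to 515 and 516 FPKM in control, 555 and 566 in alcohol and 533 and 587 in co-treated libraries. These sums, too, were read in FPKM only and not in CPM.

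**Figure D2:**
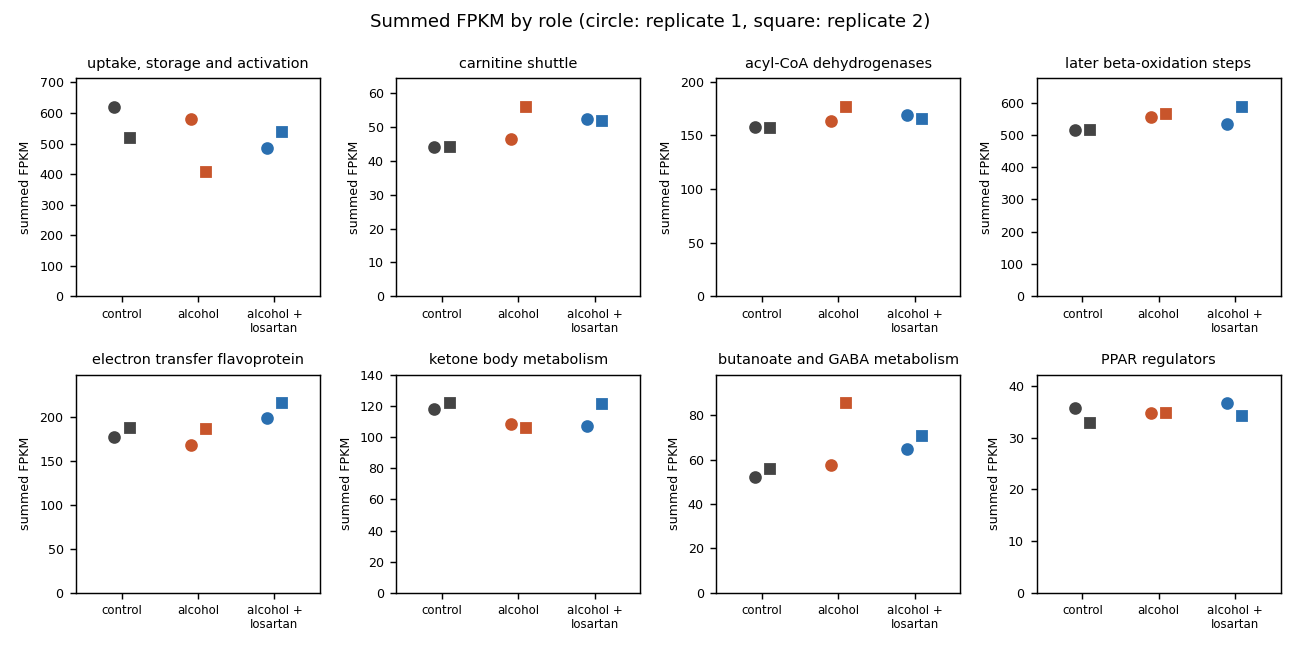
Summed FPKM of each of the 8 roles in the 6 libraries, each axis starting at 0, with circles for replicate 1 and squares for replicate 2. The carnitine shuttle, the acyl-CoA dehydrogenases, the later beta-oxidation steps and the butanoate and GABA genes are lowest in both controls on this scale. The uptake group, led by FABP3, is lowest in alcohol replicate 2 at 406.5. In FPKM, 24.7% of all genes tested lay above control without overlap in alcohol and 17.7% below it. For co-treated libraries these shares were 27.1% and 16.3%. Whether the sums keep this order in CPM was not tested.

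ETFA and ETFB form the electron transfer flavoprotein, which takes electrons from the acyl-CoA dehydrogenases, and ETFDH passes them on to ubiquinone. ETFA measured 102.5 and 100.8 FPKM in control, 101.9 and 98.1 in alcohol and 107.1 and 117.6 in co-treated libraries. The co-treated values of ETFA were the highest. ETFB ranged from 53.0 to 79.1 and ETFDH from 13.6 to 19.2. For the 3 genes the median log2 fold change was -0.04 in alcohol against control and 0.20 in co-treated against alcohol, and none of the 3 had an unadjusted p under 0.05. In CPM the co-treated libraries were above alcohol for all 3, while in FPKM ETFDH overlapped (17.7 against 17.9).

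The ketone body genes were led by OXCT1. It (chromosome 5, 41730065 to 41870519) encodes the mitochondrial transferase that activates acetoacetate so that it can be oxidised, and measured 68.4 and 73.5 FPKM in control, 57.1 and 50.9 in alcohol and 53.6 and 64.0 in co-treated libraries. Its means were 70.9 ± 3.59, 54.0 ± 4.40 and 58.8 ± 7.37 (SD, n = 2 each), and all 4 treated values were below both controls. The log2 fold change was -0.43 in alcohol (SE 0.133, -0.72 to -0.14, unadjusted p = 0.00643, adjusted p = 0.244) and -0.32 in co-treated libraries (SE 0.132, -0.60 to -0.03, adjusted p = 0.337). The latter was -0.18 without co-treated replicate 1. From alcohol to co-treated it differed by 0.11 (95% interval -0.17 to 0.40), with overlap. OXCT1 overlaps the exons of the antisense gene OXCT1-AS1, which had 21 and 18 counts in control, 12 and 11 in alcohol and 7 and 11 in co-treated libraries, against 896 to 1329 for OXCT1.

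ACAT1 and BDH1 overlapped between control and alcohol. ACAT1, the mitochondrial thiolase that splits acetoacetyl-CoA, measured 30.7 and 29.6 FPKM in control, 29.6 and 31.4 in alcohol and 31.5 and 33.6 in co-treated libraries. BDH1, which interconverts 3-hydroxybutyrate and acetoacetate, measured 4.88 and 4.35 in control, 4.53 and 4.94 in alcohol and 4.56 and 4.82 in co-treated libraries. OXCT1 was 10.3 to 16.9 times BDH1, with the lowest ratio in alcohol replicate 2. BDH2, a cytosolic relative, ranged from 14.3 to 18.8 and was higher in all 4 treated libraries than in control.

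Of the 3 genes of butanoate and GABA metabolism, ABAT (chromosome 16, 8674565 to 8784575), the mitochondrial GABA transaminase, measured 46.8 and 50.04 FPKM in control, 51.4 and 77.8 in alcohol and 58.3 and 63.0 in co-treated libraries. All treated values were above control, and the alcohol replicates were the farthest apart of the 3 pairs. The alcohol log2 fold change was 0.37 (SE 0.153, 0.04 to 0.70, adjusted p = 0.393). Leaving out alcohol replicate 2 gave 0.09, and leaving out alcohol replicate 1 gave 0.62, where it passed, with an adjusted p of 0.044 by edgeR (0.044 to 0.985 over all alternatives). That fit leaves alcohol replicate 2, the library with low glycolysis and muscle marker sums, as the only alcohol library and assumes that it varies as the other groups do.

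ALDH5A1 (chromosome 6, 24494852 to 24537207), which oxidises succinic semialdehyde, the product of ABAT, measured 4.31 and 4.92 FPKM in control, 4.65 and 6.40 in alcohol and 6.23 and 6.52 in co-treated libraries. The co-treated values were above control by a log2 fold change of 0.42 (SE 0.177, 0.04 to 0.80, adjusted p = 0.338), and alcohol overlapped both. ACSM3, a medium-chain acyl-CoA synthetase that acts on butyrate, was close to the floor, with 11 and 9 counts in control, 19 and 14 in alcohol and 3 and 15 in co-treated libraries, or 0.28 to 1.74 FPKM. Both alcohol values were above both controls, on few counts and with no unadjusted p under 0.05, and its co-treated replicates were the farthest apart of any member. Exons of ECI2, ABAT and ALDH5A1 overlap genes on the opposite strand, C6orf201 (35 to 51 counts), TMEM186 (34 to 61) and GPLD1 (41.2 to 56.2, against 113 to 169.6 for ALDH5A1). ACSM3 likewise overlaps ERI2, which had 68 to 132 counts, more than ACSM3 in every library. ETFDH overlaps PPID (293 to 353, against 147 to 207 for ETFDH) and C4orf46. Opposite-strand genes also overlap CPT2, ACADVL and ACAD9. For all of these the division of reads is uncertain if counting ignored strand. On the same strand, exons of BDH2, ACADM and ACSL4 overlap SLC9B2 (76 to 93 counts), RABGGTB (223 to 275) and KCNE5 (5 to 17), where the division is uncertain as well.

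Regulators of these pathways were also read. PPARA, the receptor that drives fatty acid oxidation genes in heart and liver, measured 4.68 and 4.22 FPKM in control, 4.27 and 4.87 in alcohol and 4.56 and 4.03 in co-treated libraries. PPARD, the broadly expressed receptor, ranged from 14.6 to 17.4 and was 3.00 to 3.99 times PPARA in each library. PPARGC1A, which encodes PGC-1α, measured 13.7 and 11.98 in control, 15.8 and 15.4 in alcohol and 15.5 and 14.2 in co-treated libraries. All 4 treated values of PPARGC1A were above control and all 4 of PPARD were below it, and neither difference had an unadjusted p under 0.05.

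**Figure D3:**
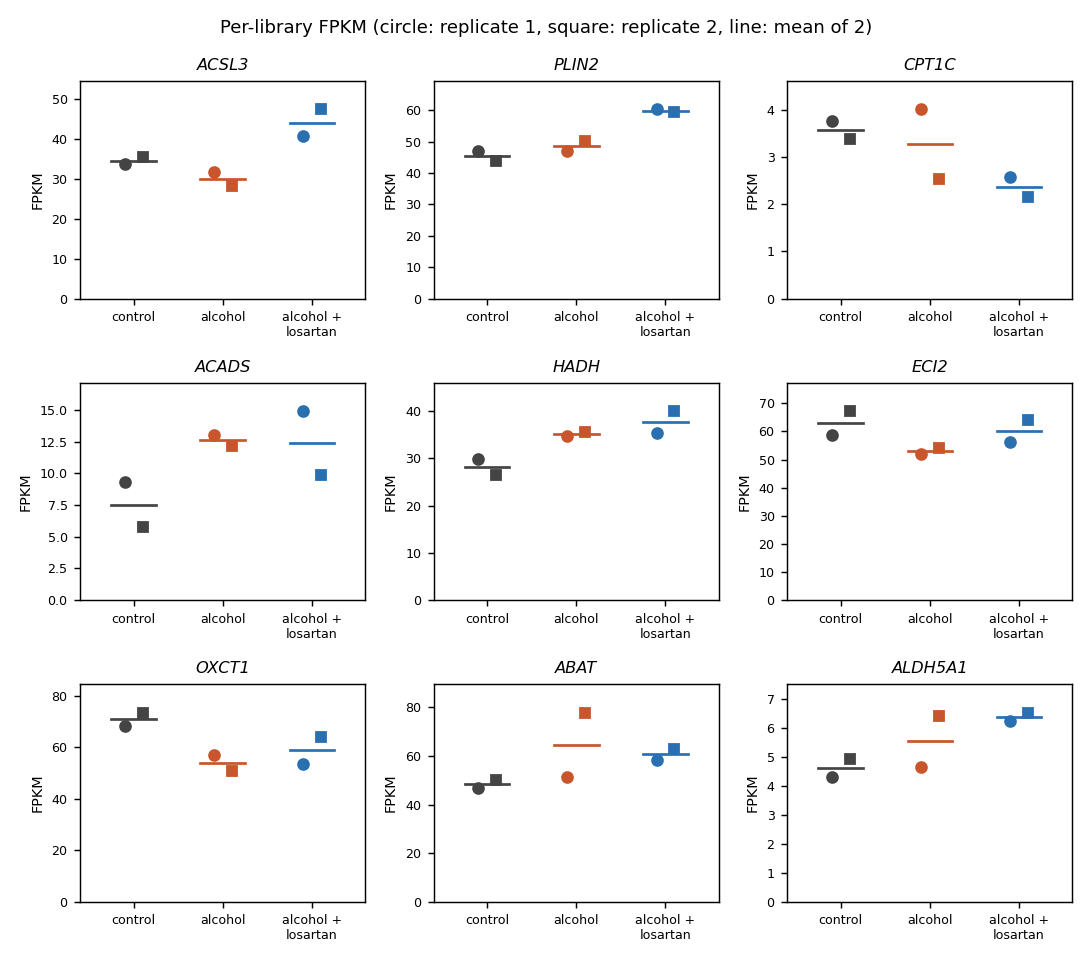
FPKM of the 9 genes with an unadjusted p under 0.05 in any comparison, 1 point per library and a line at the mean of 2, each axis starting at 0. ACSL3 and PLIN2 are highest in both co-treated libraries, OXCT1 is highest in both controls, and alcohol replicate 2 sets the mean of ABAT at 64.6.

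In alcohol against control, 0 of the 38 genes passed the adjusted threshold, which 0.067% of the 14926 genes tested did. At an unadjusted p under 0.05, 2 were higher (ACADS and ABAT) and 2 lower (ECI2 and OXCT1), or 5.26% each way, against 5.27% and 5.78% of all genes. Both shares are near the background. In CPM with TMM scaling, libraries did not overlap for 11 genes in the higher direction (28.9%, all genes 22%) and for 5 in the lower (13.2%, all genes 21.8%). In FPKM, which lacks the TMM scaling, these counts were 15 (39.5%, all genes 24.7%) and 4 (10.5%, all genes 17.7%). The median log2 fold change of the 38 was 0.04, against -0.003 over all genes tested, and 22 of 38 were above 0. It was 0.11 without control replicate 1 and 0.07 without alcohol replicate 1. Fitted differences ran from -0.43 to 0.70, and for 34 of 38 (89.5%, all genes 74.8%) the 95% interval lay within 1 on either side of 0, so that for these a doubling lay outside the interval.

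In co-treated against control, again 0 of 38 passed, against 0.362% of all genes. With an unadjusted p under 0.05 there were 5 higher (ACSL3, PLIN2, ACADS, HADH and ALDH5A1, 13.2%, all genes 6.26%) and 2 lower (CPT1C and OXCT1, 5.26%, all genes 6.37%). Libraries did not overlap for 14 in the higher direction (36.8%, all genes 21.6%) and for 5 in the lower (13.2%, all genes 21.7%). In FPKM they were 18 (47.4%, all genes 27.1%) and 6 (15.8%, all genes 16.3%). The median was 0.11, against -0.002 over all genes, with 22 of 38 above 0, and was 0.06 without the second control library, 0.17 without the first co-treated library and 0.02 without the second. The range was -0.68 to 0.66, and 33 of 38 intervals (86.8%, all genes 74.7%) lay within 1 of 0. This comparison shares its control libraries with the preceding one.

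In co-treated against alcohol, which asks what losartan changed on top of alcohol, 0 of 38 passed, against 0.0134% of all genes. ACSL3 and PLIN2 were higher at an unadjusted p under 0.05 (5.26%, all genes 2.84%) and 0 were lower (all genes 2.71%). Libraries did not overlap for 8 genes in the higher direction (ACSL3, PLIN2, ECI2, ETFA, ETFB, ETFDH, ACAT1 and PPARD, 21.1%, all genes 17.4%) and for 1 in the lower (ACADL, 2.63%, all genes 16.2%). In FPKM they were 8 (21.1%, all genes 18%) and 1 (2.63%, all genes 14.3%). The median was 0.01, against 0.002, and 20 of 38 were above 0. Leaving out the second co-treated library turned it to -0.02, and leaving out the first raised it to 0.10. With 2 libraries against 2, an exact two-sided permutation test of a single gene cannot go below p = 0.333, so the fit across all genes was used throughout.

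**Figure D4:**
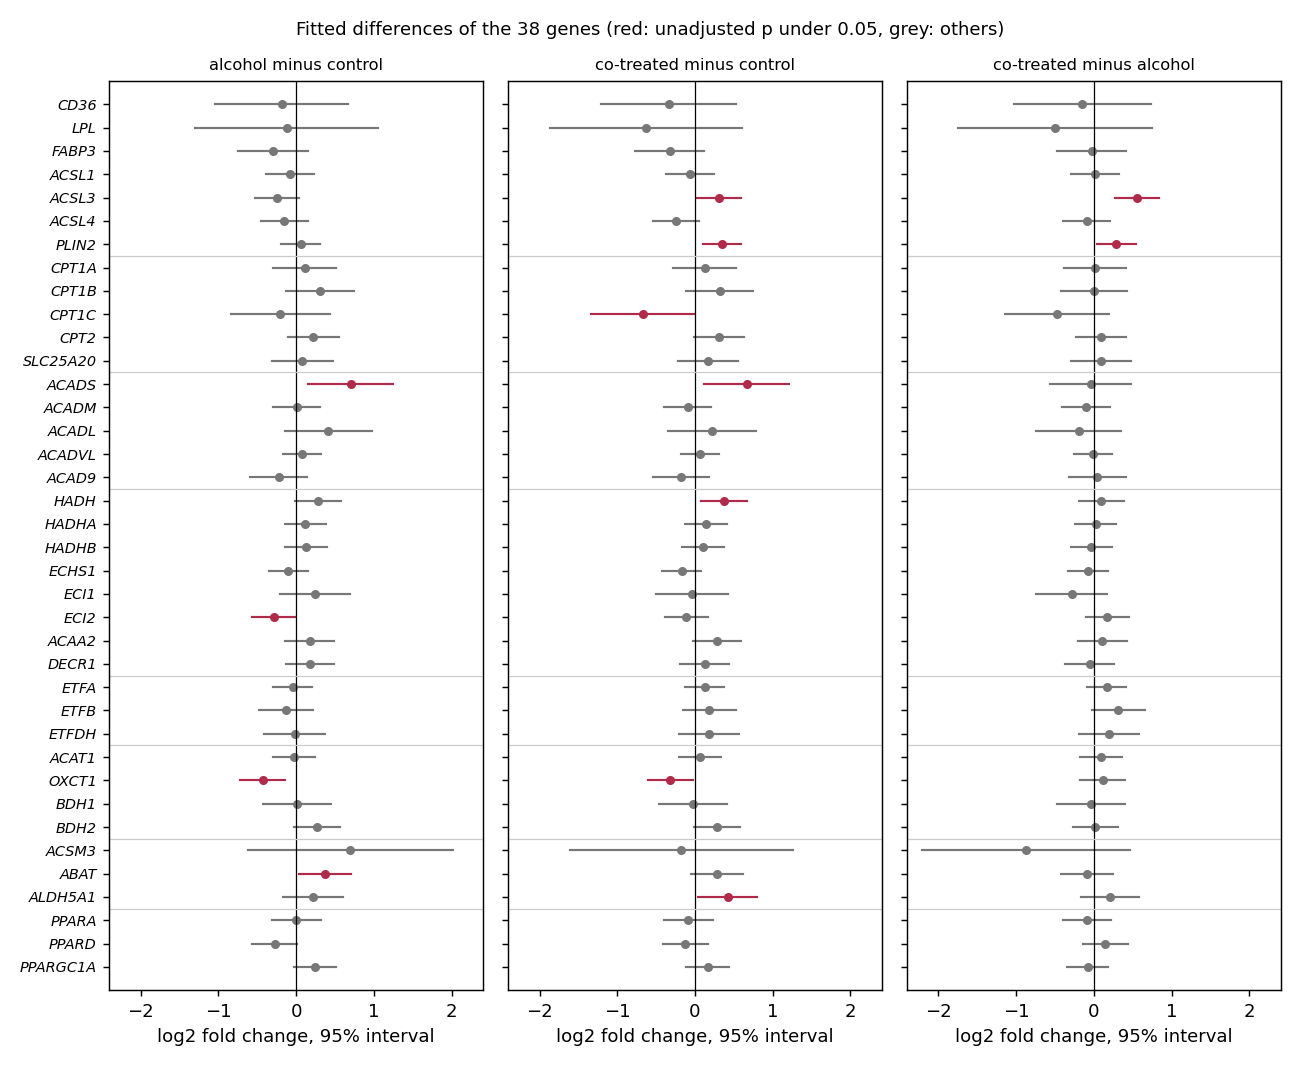
Fitted log2 fold changes of the 38 genes with 95% intervals in the 3 comparisons, red where the unadjusted p was under 0.05. Most intervals hold 0 (34, 31 and 36 of 38), and ACSM3, LPL and CD36, the lowest members, have the widest.

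A wider list of 106 genes of the same pathways was read from the same fit, of which 101 were listed under the symbols used and 82 were tested. Among these 82, 0 passed in any of the 3 comparisons by edgeR, while DESeq2 passed 1, 2 and 0, out of 72, 128 and 5 genes it passed in the whole table. At an unadjusted p under 0.05, 4 were higher (4.88%, all genes 5.27%) and 7 lower (8.54%, all genes 5.78%) in alcohol against control. In co-treated against control 9 were higher (11%, all genes 6.26%) and 6 lower (7.32%, all genes 6.37%). In co-treated against alcohol 4 were higher (4.88%, all genes 2.84%) and 2 lower (2.44%, all genes 2.71%). The medians were -0.002, -0.01 and 0.03 on the log2 scale.

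HMGCS1 and ACAT2, listed with ketone and butanoate metabolism, were among the genes with the smallest p-values in alcohol against control. HMGCS1, the cytosolic synthase that feeds cholesterol synthesis, measured 92.0 and 113 FPKM in control, 59.1 and 41.6 in alcohol and 53.8 and 69.4 in co-treated libraries. Its log2 fold change was -1.05 in alcohol (SE 0.186, adjusted p = 0.0547) and -0.78 in co-treated libraries (SE 0.185, adjusted p = 0.0911). ACAT2, the cytosolic thiolase at the start of the sterol route, measured 47.2 and 57.2 in control, 36.4 and 19.5 in alcohol and 28.7 and 31.3 in co-treated libraries, with -0.91 in alcohol (SE 0.221, adjusted p = 0.149). That value was -0.51 once alcohol replicate 2 was left out and -1.43 once alcohol replicate 1 was.

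In co-treated against control, TXNIP and SLC27A6 led together with HMGCS1. TXNIP, a glucose-responsive brake on glucose uptake that was listed with PPAR targets, measured 179 and 188 FPKM in control, 218 and 286 in alcohol and 286 and 349 in co-treated libraries, with a log2 fold change of 0.74 (SE 0.146, adjusted p = 0.0506). SLC27A6, the fatty acid transport protein of heart, measured 32.9 and 35.2 in control, 26.5 and 27.0 in alcohol and 24.9 and 24.3 in co-treated libraries, with -0.51 (SE 0.116, adjusted p = 0.0787). Replicates of SLC27A6 were tight, and the 3 groups did not overlap.

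Among the leading genes in co-treated against alcohol were ACACA, which makes the malonyl-CoA that inhibits CPT1 (0.39, adjusted p = 0.836), and the nuclear receptor gene ESRRA (-0.45, adjusted p = 0.836), both on the log2 fold change scale by edgeR. Several classical PPARα responders were at the floor. PDK4, VNN1 and CREB3L3 had at most 3 counts in every library. No level above the floor was thus seen for these 3 genes in any group, and differences below it could not be measured at this depth.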

How the data were processed

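RNA was sequenced from 6 libraries, grouped by the treatment in the labels. The values deposited by the authors are, per library, the expected count and the FPKM of each gene, with the FPKM repeated in 1 table over the series. The submitters' processing notes name HISAT2 2.0.4, Bowtie2 2.2.5, RSEM 1.2.12 and the build hg38. Whether counting used strand is not given in the sources used here, so reads of genes that overlap on opposite strands may be shared. Of the nonzero expected counts 33.9% were not whole, and all were rounded for the test. Genes missing from a library's own table were set to 0. The series table also holds GO and KEGG annotation, which was not used.

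The test was edgeR 4.0.16 (R 4.3.3), quasi-likelihood, two-sided, with TMM normalization, filterByExpr and 1 fit over the 6 libraries. P-values were adjusted (Benjamini-Hochberg) across the 14926 genes tested. Intervals are at 95%. On simulated counts for alcohol against control (14698 genes) it recovered 97% of genes changed by 2 and 75% of those changed by 1 on the log2 scale. There were 100 genes of each size, drawn above a count minimum that ACSM3 and LPL do not reach. Adjusted p-values depend on how many genes change, and only 10 genes passed in the data. No change under 1 was simulated, while the members ran from -0.43 to 0.70 in this comparison. The simulation thus does not give the share of such differences that would be found. Alternatives were DESeq2 1.42.0, limma 3.58.1 on log2(FPKM + 1) and log2(FPKM + 0.1), other filters and scalings, a replicate block, and leaving out each library. Overlap of libraries was read in TMM-scaled CPM and, as an alternative chosen after seeing the data, in FPKM. Floors and intervals cover counting error or the fitted spread only.

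The 38 genes, the wider pathway list, and the marker lists were chosen with earlier results of these data known. Genes were named where an unadjusted p was under 0.05 in any comparison, plus fixed leading members of each role, and, of the wider list, the 3 with the smallest p in each comparison. Some genes that this rule selects are not reported here. Values for 5 listed genes absent under the symbols used (FABP4, FGF21, CIDEC, GAD2 and MMUT) are not analysed here. Gene coordinates and exon overlaps come from GENCODE release 29 on GRCh38, and promoter windows from RefSeq.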

Additional observations from a re-analysis of the deposited data

How the results depend on the processing

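No log2 fold change of the 22 examined turned its sign in 308 values under 14 alternatives, and 16 of those values passed the threshold: 6 of TXNIP, 7 of HMGCS1, 2 of ACAT2 and 1 of ABAT. Those 22 were chosen for small p-values. Of all 38 genes, when a library of the groups compared was left out, 4 to 7 turned sign in alcohol against control, 3 to 5 in co-treated against control and 7 to 10 in co-treated against alcohol, none of them with an unadjusted p under 0.05 in the full data. In alcohol against control the number of genes passing over the whole table was 10, and it was 2 with no filter, 26 with at least 10 counts in every library, 3 with only the libraries compared, 72 by DESeq2, 1 by limma with either pseudocount, and 1 to 220 when single libraries were left out. For co-treated against control it was 54, then 15 with no filter, 158 with only the libraries compared, 128 by DESeq2, 1 and 3 by limma with a pseudocount of 1 and 0.1, and 2 to 184. For co-treated against alcohol it was 2, then 1 with no filter, 0 with at least 10 counts, 4 with only the libraries compared, 5 by DESeq2, and 1 to 24. The count of the 38 genes passing stayed at 0 in all of these except without alcohol replicate 1, where it was 1 in alcohol against control (0 to 1 over left-out libraries). Of the wider list in alcohol against control, 1 passed with at least 10 counts, 1 by DESeq2 and 0 to 3 with a library left out; in co-treated against control 1, 2 and 0 to 4, and 3 with only the libraries compared. The median of the 38 in alcohol against control was 0.10 by limma with either pseudocount. Leaving out single libraries gave 0.03 to 0.11 in that comparison, 0.02 to 0.17 in co-treated against control and -0.02 to 0.10 in co-treated against alcohol. The cause of these changes was not tested.

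Replicates with the same number were not shown to be paired: the correlations of their deviations from the group means were 0.114, -0.0162 and 0.0412. With a replicate block 48, 136 and 5 genes passed in the 3 comparisons, 1, 1 and 0 of the wider list and 0 of the 38. Depth limits ACSM3, LPL, CD36 and CPT1C most.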
